A study of Equus caballus with 28 samples.

Results

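Small RNA was sequenced from the plasma of 11 horses with osteoarthritis (OA) of the distal interphalangeal joint, and the 11 libraries were split by how many of their miRNA reads came from 3 miRNAs of red blood cells. A library was classed as red-cell-rich when eca-miR-451, eca-miR-486-5p and eca-miR-144 together held at least 40% of its miRNA reads. The classes were chosen by these measured values and not by any label. Of the 11 plasma libraries 4 were red-cell-rich and 7 were red-cell-poor, out of 28 libraries in all. The other 17 libraries came from synovial fluid, and 11 of these were from the same horses. Horses are named M for mild OA and S for severe OA, which the labels call moderate to severe, and are numbered by age. The red-cell-rich class held M4, S5, M3 and S9, which are 2 horses with mild and 2 with severe OA, 2 females and 2 males, aged 10.8, 12, 10 and 26.2 years. The red-cell-poor class held S6, S7, S12, S11, S1, S8 and M1, which are 1 horse with mild and 6 with severe OA, 3 females and 4 males, aged from 5.17 to 34.3 years. Each library came from 1 horse, with no treatment in the labels. The labels give chondrocytes as the cell type of every library, plasma included, so this entry does not describe the fluid that was sequenced. All library names carry the same run name.

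Mature red blood cells have no nucleus and carry a small set of miRNAs left from their development. MiR-451 and miR-144 are made from neighbouring genes that the red-cell factor GATA1 switches on, and miR-451 is cut by Argonaute 2 without Dicer. MiR-486-5p comes from a gene inside ANK1, which codes for a protein of the red-cell membrane. Plasma miRNAs also come from platelets, white blood cells, vessel walls and organs, and red cells that break or stay behind after centrifugation add their own. Less RNA from other sources and more RNA from red cells cannot be told apart in shares of reads.

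The 3 miRNAs held 43.98% of the miRNA reads in M4, 45.12% in S5, 73.47% in M3 and 75.57% in S9. In the red-cell-poor libraries they held 22.80% in S6, 24.96% in S7, 25.55% in S12, 26.87% in S11, 29.30% in S1, 32.46% in S8 and 32.92% in M1. The nearest libraries on either side of the limit were therefore M1 at 32.92% and M4 at 43.98%, and a limit of 35% gave the same classes. M3 and S9 stood far above M4 and S5, so the red-cell-rich class was itself made of a pair of very high libraries and a pair near the limit. The 95% Wilson interval of each share was at most 0.095 percentage points to either side, which covers counting error only because reads were amplified without molecular identifiers.

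**Figure D1:**
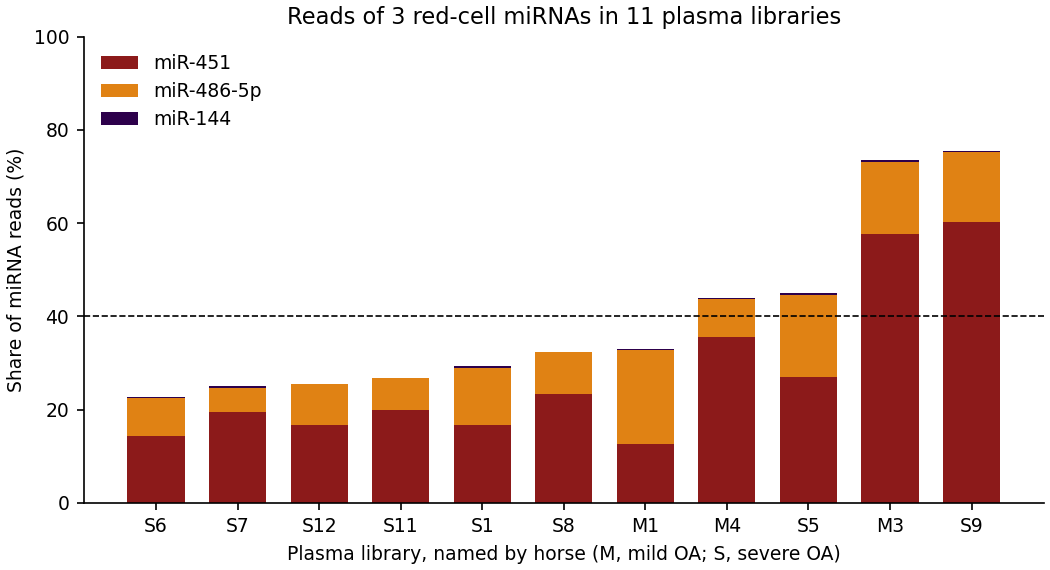
Share of miRNA reads held by each of the 3 red-cell miRNAs, with miR-451 at the bottom (y axis, %) in the 11 plasma libraries (x axis, by horse, in order of the summed share), with the limit of 40% as a dashed line. M4 and S5 lie at 43.98% and 45.12%, M3 and S9 at 73.47% and 75.57%, and the other 7 libraries between 22.80% and 32.92%.

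MiR-451 made up most of the difference. It held 35.5% of miRNA reads in M4, 27.1% in S5, 57.6% in M3 and 60.2% in S9, against 12.6% (M1) to 23.4% (S8) in red-cell-poor plasma. MiR-486-5p held 8.21% in M4, 17.6% in S5, 15.5% in M3 and 15.1% in S9, and between 5.32% (S7) and 20.2% (M1) in the red-cell-poor class. The classes therefore overlapped for miR-486-5p. MiR-144 held 0.247% in M4, 0.483% in S5, 0.418% in M3 and 0.321% in S9, and from 0.0996% (M1) to 0.276% (S1) in red-cell-poor plasma. M1 differed from the rest in the balance of these miRNAs. Its ratio of miR-451 to miR-486-5p reads was 0.625, while the other 10 plasma libraries ranged from 1.36 (S1) to 4.33 (M4). The values of the 3 miRNAs fixed the classes, so no test was made on them, and they were removed before all other miRNAs were rescaled and compared.

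The plasma libraries held 3591154 to 6277199 reads, of which 934841 (S8) to 4623631 (S9) were assigned to miRNAs. After the 3 miRNAs were removed, 631390 (S8) to 1952974 (S12) reads of other miRNAs were left. No difference between the classes in library content or donor passed a 2-sided exact permutation or Fisher exact test over the 330 ways to assign the libraries. Other miRNAs made up 21.2% ± 6.56 (SD, n = 4) of red-cell-rich and 28.2% ± 10.0 (SD, n = 7) of red-cell-poor libraries (exact permutation p = 0.236). At an equal depth of 631390 reads, 272 ± 15.9 (SD, n = 4) and 277 ± 14.4 (SD, n = 7) other miRNAs were expected to be seen (exact permutation p = 0.594). Spike-in reads, per 1e+06 library reads, varied widely within both classes, from 1374 to 22678 in red-cell-rich and from 703 to 8608 in red-cell-poor plasma (exact permutation p = 0.424 on the log2 scale). Per spike-in read, the 3 miRNAs had 10.1 reads in M4, 139 in S5, 25.6 in M3 and 405 in S9. Red-cell-poor plasma had 6.25 (S8) to 146 (S1) by this measure. The classes overlapped here, so their names refer to shares of reads only. Age (exact permutation p = 0.436), OA group (Fisher exact p = 0.491) and sex (Fisher exact p = 1) gave no smaller p. With 4 and 7 libraries, 1 of the 330 assignments is a share of 0.00303. The 2-sided permutation test doubles the smaller tail, so its smallest possible p is that share doubled.

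Of the remaining miRNAs, miR-15a and miR-16 were higher and miR-150 was lower in red-cell-rich plasma. MiR-15a and miR-16 are made from shared precursors, have related sequences and act on cell cycle genes, and miR-16 is a miRNA that red blood cells carry in quantity. MiR-150 is known for its role in lymphocytes. These were the 3 miRNAs called at a false discovery rate (FDR) under 0.05 by the quasi-likelihood test of edgeR, adjusted by Benjamini-Hochberg, which is 4.76% of the 63 miRNAs left after independent filtering. Of the 379 detected, filtering had kept those that averaged 904 CPM or more, the one of 50 cutoffs that gave the most calls in these data. CPM, the unit of level used here, is the count scaled to 1e+06 miRNA reads without the 3 removed miRNAs, with TMM factors. These factors raised every level in S9 and M1 the most and in S5 slightly, and lowered every level in M3, among others. All 3 had an FDR of 0.0485, just under the limit, and of 0.158 without the filter. By edgeR's test 33 of the 379 had an unadjusted p under 0.05.

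MiR-15a was at 6702 CPM in M4, 8717 in S5, 11075 in M3 and 27007 in S9. In red-cell-poor plasma it ranged from 3609 to 6419 CPM with a median of 4721. Every red-cell-rich library lay above every red-cell-poor one. The log2 fold change was 1.46 with a standard error (SE) of 0.38, a 2.76-fold higher level (exact permutation p = 0.00606, 2-sided, n = 4 and 7). This is the smallest p that the 2-sided permutation test can give here.

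MiR-16 reached 59578 CPM in M4, 88607 in S5, 92085 in M3 and 224100 in S9, against 38030 to 60287 with a median of 46694 in the other class. Only the library of M1, at 60287 CPM, passed the lowest red-cell-rich library, M4. M1 had 62136 reads of miR-16 among 1523232 miRNA reads without the 3, and M4 had 93558 among 1455024. Before the TMM factors M1 was therefore below M4. S9 had 157657 reads of miR-16 among 1129519, and M3 had 94183 among 792611. The lead of S9 over M3 was therefore smaller before these factors. The log2 fold change was 1.29 (SE 0.35), or 2.44-fold (exact permutation p = 0.0121, n = 4 and 7). S9 had the highest level of both, and without S9 the log2 fold changes fell to 0.79 (SE 0.36) for miR-16 and 0.88 (SE 0.42) for miR-15a, neither of them called (FDR 0.746, edgeR). Neither was called without M1, S11, S12, S1, S5, S8 or S6 either.

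MiR-150 was at 990 CPM in M4, 5776 in S5, 1524 in M3 and 2456 in S9. The red-cell-poor libraries spread from 3459 (S8) to 25778 (S1) with a median of 18386. Of that class S8 alone lay below S5. The log2 fold change was -2.39 (SE 0.65), so the level was 5.25-fold higher in red-cell-poor plasma (exact permutation p = 0.0121, n = 4 and 7). Leaving out single libraries gave log2 fold changes between -3.44 (without S5) and -2.12 (without M4). MiR-150 was not called without M3, M1, S12, S1, S9 or S6.

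**Figure D2:**
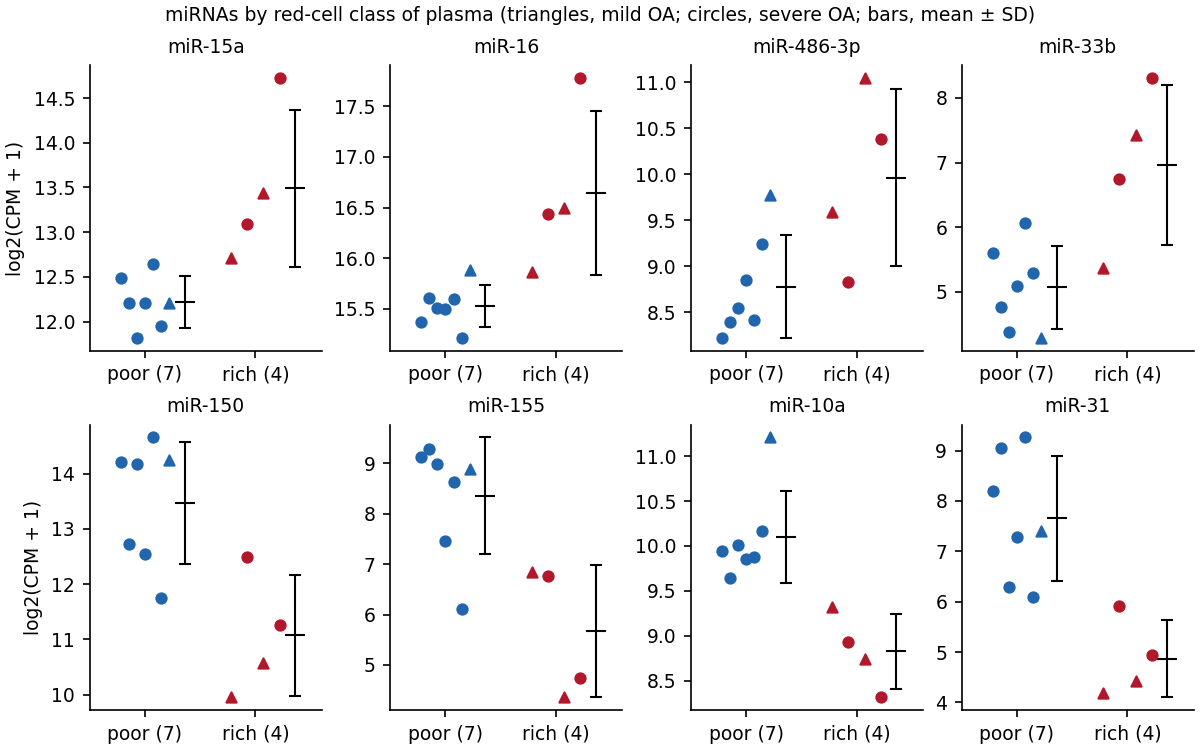
Level of 8 miRNAs as log2(CPM + 1) (y axis) in the 7 red-cell-poor (blue) and 4 red-cell-rich (red) plasma libraries, with triangles for mild and circles for severe OA, libraries in order of their share, and bars for the mean ± SD. The classes do not overlap for miR-15a, miR-10a and miR-31, and S9 holds the highest level of miR-15a, miR-16 and miR-33b.

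Without the filter, or with all miRNAs of at least 10 CPM, no miRNA was called by edgeR, although 33 had an unadjusted p under 0.05 without the filter, and DESeq2 called 16, of which 11 were higher. Leaving out 1 library in turn gave between 0 and 8 calls, with 0 without M1, S12, S1, S9 or S6 and 8 without M4.

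Of the 124 miRNAs that averaged 100 CPM or more, 3 did not overlap between the classes, which is 2.42%. Besides miR-15a these were miR-10a and miR-31, both lower in every red-cell-rich library. MiR-10a, a miRNA encoded within the HOXB gene cluster, was at 638 CPM in M4, 487 in S5, 429 in M3 and 318 in S9, and at 796 to 2362 with a median of 984 in the other class. Its log2 fold change was -1.32 (SE 0.42), with an FDR of 0.110 in edgeR. MiR-31 was at 17.2 CPM in M4, 59.0 in S5, 20.5 in M3 and 29.9 in S9, against 66.8 to 611 with a median of 168. It had the smallest unadjusted p of all miRNAs, 0.00104 by edgeR's test, with a log2 fold change of -3.10 (SE 0.76), but its mean was below the filter. Its log2 fold change was -4.33 with spike-in reads as the scaling and -2.94 without M3 and S9, and it was negative in every alternative tried.

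Other miRNAs of red blood cells were mostly on the positive side. Of the 16 on a list of red-cell miRNAs beyond the chosen 3, all were detected and 12 averaged at least 100 CPM. Of these 12, 11 had a positive and 1 a negative log2 fold change, with a median of 0.70, while the median over all 124 miRNAs of at least 100 CPM was -0.22. Of the 9 members that passed the filter, miR-15a and miR-16 were called as higher and none as lower, beside 4.76% called over all miRNAs tested. With the log2 ratio of the 3 miRNAs as a continuous term, described further on, 4 of 12 were called as rising (miR-15a, miR-16, miR-486-3p and miR-93) and 1, miR-363, as falling, beside 16.8% over all. MiR-486-3p shares its hairpin with miR-486-5p, which is 1 of the 3 miRNAs. Its place in these counts and in the median is therefore no independent evidence. Together the 16 miRNAs held 22.6% to 51.1% of other miRNA reads in red-cell-rich and 19.4% to 37.9% in red-cell-poor plasma. The ranges of this sum overlapped.

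MiR-486-3p, the other arm of the hairpin that gives miR-486-5p and thus not independent of the choice of classes, was at 770 CPM in M4, 454 in S5, 2109 in M3 and 1336 in S9, against 298 to 876 with a median of 374. Its log2 fold change was 1.31 (SE 0.46), with M1 of the other class above both M4 and S5. MiR-25, miR-93 and miR-106b share 1 cluster in the horse genome. MiR-93 had a log2 fold change of 0.83 (SE 0.35), miR-106b of 0.74 (SE 0.39) and miR-25 of 0.66 (SE 0.58). MiR-25 was the most uneven of these. It was at 43597 CPM in M4, 133128 in S5, 107139 in M3 and 271650 in S9, and at 31715 to 269684 with a median of 60687 in the red-cell-poor class. The upper end belonged to M1, whose level nearly equalled that of S9.

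MiR-92a, of the miR-17 cluster, was likewise high in S9 (122912 CPM) and M1 (131253 CPM), and its log2 fold change was 0.36 (SE 0.52). The remaining positive members were miR-15b with 0.75 (SE 0.39), miR-101 with 0.46 (SE 0.42), miR-20a with 0.28 (SE 0.37) and miR-17 with 0.03 (SE 0.38). MiR-17 had nearly the same reads as miR-106a in every plasma library, such as 2295 and 2312 in M4. The 2 can hardly be told apart here. MiR-363 alone was negative among the 12. It was at 1032 CPM in M4, 937 in S5, 158 in M3 and 291 in S9, against 422 to 2679 with a median of 1304, a log2 fold change of -1.35 (SE 0.60). MiR-185, miR-183, miR-182 and miR-96 had means of 30.1, 28.5, 27.3 and 2.10 CPM and log2 fold changes of 0.60, -0.17, -0.10 and 0.04. Apart from miR-15a and miR-16, no member of the list was called in the class comparison.

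The direction of this list depended on what the reads were scaled to. With spike-in reads as the scaling the median of the 124 miRNAs moved from -0.22 to -1.21, and miR-25, miR-93, miR-106b, miR-92a, miR-15b, miR-101, miR-20a, miR-17 and miR-486-3p turned negative, between -1.04 and -0.015. Each of them stayed above that median. MiR-15a (0.23, FDR 0.921 in edgeR) and miR-16 (0.27, FDR 0.919 in edgeR) stayed positive but were not called. Per spike-in read, the other 9 of the 11 positive members of at least 100 CPM were therefore not positive.

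When the log2 ratio of the 3 miRNAs to all other miRNA reads was used in place of the classes, 23 miRNAs were called, 10 that rose and 13 that fell with the ratio, which is 16.8% of the 137 miRNAs left after filtering at a mean of 76.7 CPM (edgeR, FDR under 0.05). The unit of the slope is the log2 change for each doubling of the ratio. The log2 ratio ran from -1.76 in S6 to 1.63 in S9. MiR-15a (slope 0.64, SE 0.11) and miR-16 (0.58, SE 0.10) had the smallest p, with an FDR of 0.00417 shared with miR-155 (-1.40, SE 0.25).

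Among those that rose, miR-486-3p (0.68), miR-93 (0.40), miR-107b (0.60), miR-107a and miR-103 (0.35 each), miR-196b (0.48), miR-3613 (0.60) and miR-33b (0.91) followed. MiR-103 and miR-107a differed by at most 0.537% in reads in any plasma library, so they share most of their reads and count as 1 observation. MiR-33b, which lies within an intron of the sterol regulator gene SREBF1, was at 40.1 CPM in M4, 107 in S5, 170 in M3 and 316 in S9, against 18.4 to 65.6 with a median of 33.1. It overlapped through M4 alone.

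Among those that fell, miR-21, an abundant miRNA of many cell types, was at 121020 CPM in M4, 96290 in S5, 28846 in M3 and 60863 in S9, against 86482 to 171943 with a median of 133147. M4 and S5 lay within the range of the red-cell-poor class, while M3 and S9 lay below all of it. MiR-26a showed the same order, with 15541 CPM in M4, 12710 in S5, 2247 in M3 and 5372 in S9, against 10834 to 35236 with a median of 18775. Their slopes were -0.50 (SE 0.13) and -0.76 (SE 0.16). MiR-24 (-0.62) and miR-27a (-0.57), which share a cluster with miR-23a, were lowest in M3 and S9 and within the red-cell-poor range or above it in M4 and S5. The others were miR-28-3p (-0.88), miR-28-5p (-0.81), miR-342-5p (-1.33), miR-383 (-1.47), miR-363 (-0.88), miR-31 (-1.20), miR-150 (-0.96) and let-7a (-0.75).

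**Figure D3:**
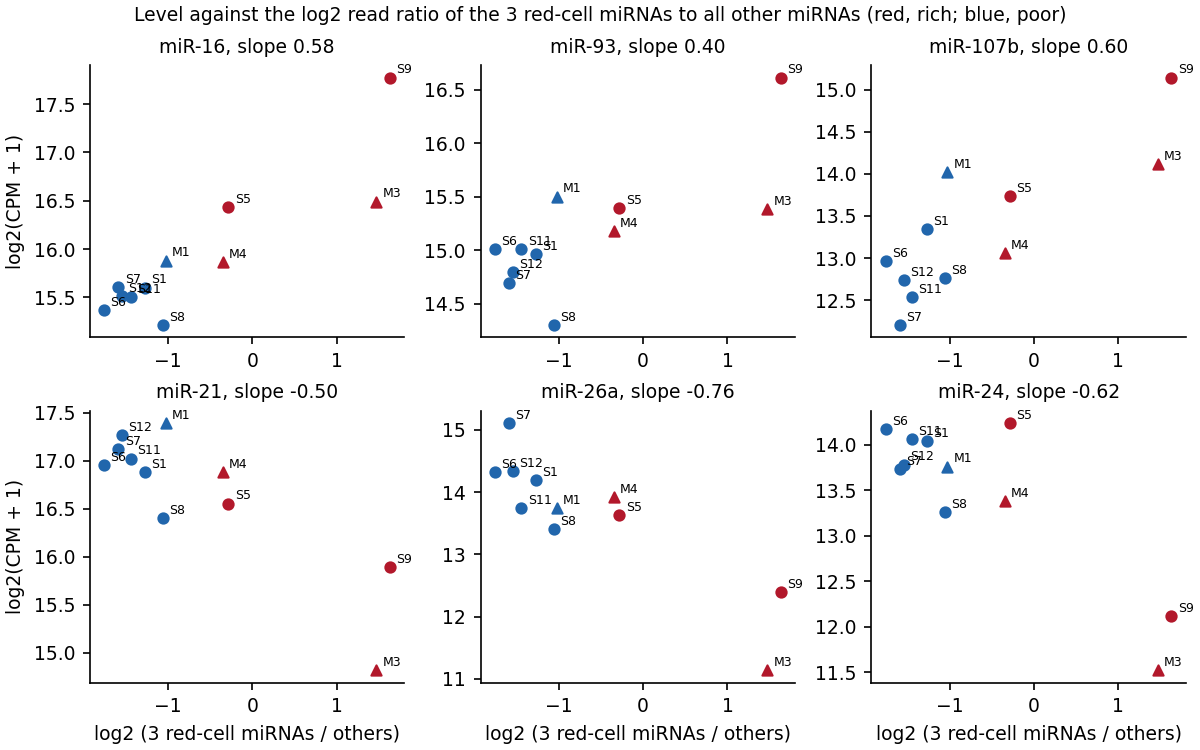
Level of 6 miRNAs as log2(CPM + 1) (y axis) against the log2 ratio of the 3 red-cell miRNAs to all other miRNA reads (x axis) in 11 plasma libraries (red, red-cell-rich; blue, red-cell-poor; triangles, mild OA), with the edgeR slope for each doubling of the ratio in each title. M3 and S9 lie apart at ratios of 1.47 and 1.63 and hold the lowest levels of miR-21, miR-26a and miR-24.

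Without S9 the count of 23 fell to 2, miR-155 (-1.53) and miR-486-3p (0.79), and without M3 to 11. Without both no miRNA was called by edgeR, where all 23 kept the sign of their slope. Without S8, the library with the fewest miRNA reads, 48 were called, 33 of them rising. Within the 8 severe OA libraries, 2 of them red-cell-rich, the class comparison called 7 miRNAs, all higher in the red-cell-rich class: miR-16 (1.78), miR-15a (1.88), miR-107b (1.81), miR-25 (1.81), miR-93 (1.31), miR-103 (1.10) and miR-107a (1.10). With 2 and 1 libraries, the mild OA group gave no such comparison.

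Markers of white blood cells were mostly on the negative side. Of 11 miRNAs on a leukocyte list, all averaged at least 100 CPM, 8 had a negative and 3 a positive log2 fold change, and the median was -0.71. Of the 7 members that passed the filter miR-150 was the only one called, beside 4.76% over all miRNAs tested. With the continuous term 3 of 11, miR-150, miR-155 and miR-342-5p, were called as falling, beside 16.8% over all. MiR-155, which is induced in activated lymphocytes and macrophages, was at 115 CPM in M4, 108 in S5, 19.6 in M3 and 25.6 in S9, against 68.1 to 619 with a median of 474. Only S8 of the red-cell-poor class reached down to the red-cell-rich values. The log2 fold change of miR-155 was -2.57 (SE 0.72). Both arms of the miR-342 hairpin were negative, with -1.37 (SE 0.53) for miR-342-3p and -2.38 (SE 0.79) for miR-342-5p, and miR-146a had -1.32 (SE 0.61). MiR-181b (-0.71), miR-181a (-0.69) and miR-142-3p (-0.55) were nearer to the median of all miRNAs.

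MiR-223, a miRNA of neutrophils, monocytes and platelets, was at 11683 CPM in M4, 93115 in S5, 3561 in M3 and 7886 in S9, against 7828 to 43926 with a median of 12933, so that the highest and the lowest levels of all 11 libraries were both in red-cell-rich plasma. Its log2 fold change was 0.52 (SE 0.76). MiR-142-5p (0.17, SE 0.59) and miR-146b-5p (0.08, SE 0.75) were also highest in S5. The 11 leukocyte miRNAs summed to 1.82% to 13.4% of other miRNA reads in red-cell-rich and 3.22% to 13.5% in red-cell-poor plasma. The part of white blood cells in these differences was not tested.

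Of the platelet miRNAs none of the 6 that passed the filter was called in the class comparison, and with the continuous term 2 of 13, miR-28-3p and miR-24, were called as falling, beside 16.8% over all miRNAs tested. Of 13 on the list 12 averaged at least 100 CPM, 9 of them negative and 3 positive, with a median of -0.64. The values ran from -1.54 (miR-28-3p) to 0.69 (miR-197). MiR-221 had -0.61 (SE 0.50), miR-222 -0.67 (SE 0.57), miR-126-3p -0.53 (SE 0.57), miR-126-5p -0.53 (SE 0.52), miR-151-5p -0.86 (SE 0.54), and miR-24 -0.67 (SE 0.46). MiR-199a-3p and miR-199b-3p had the same reads in all 11 libraries and cannot be told apart, with -1.11 (SE 0.58) for both. The platelet sum was 11.1% to 23.6% of other miRNA reads in red-cell-rich and 14.4% to 24.7% in red-cell-poor plasma.

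MiRNAs of vessel walls, the let-7 family, liver and cartilage gave no call in the class comparison either, and with the continuous term let-7a was the only one called, as falling. Of 6 miRNAs of endothelium and vessel wall 5 were negative, with a median of -0.57. MiR-143 had -2.86 with an SE of 1.40, and 1 red-cell-poor library, S7, held 19594 CPM of it and every other library at most 1339, while miR-145 had 0.02 (SE 1.04). All 5 let-7 family members of at least 100 CPM were negative, from -1.08 (let-7a) to -0.15 (let-7c), with let-7f at -0.78, let-7g at -0.21 and miR-98 at -0.95, and a median of -0.78. Both let-7c and let-7g turned positive with upper-quartile factors and with the red-cell list left out of the library size. Liver miRNAs held 0.206% to 2.06% of other miRNA reads in red-cell-rich and 0.204% to 4.71% in red-cell-poor plasma, the latter in S8. For the lists of mesenchyme and cartilage (6 miRNAs of at least 100 CPM) and epithelium (3), the medians were -0.30 and -0.068. A single muscle miRNA and none of the 39 of an imprinted cluster reached 100 CPM.

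**Figure D4:**
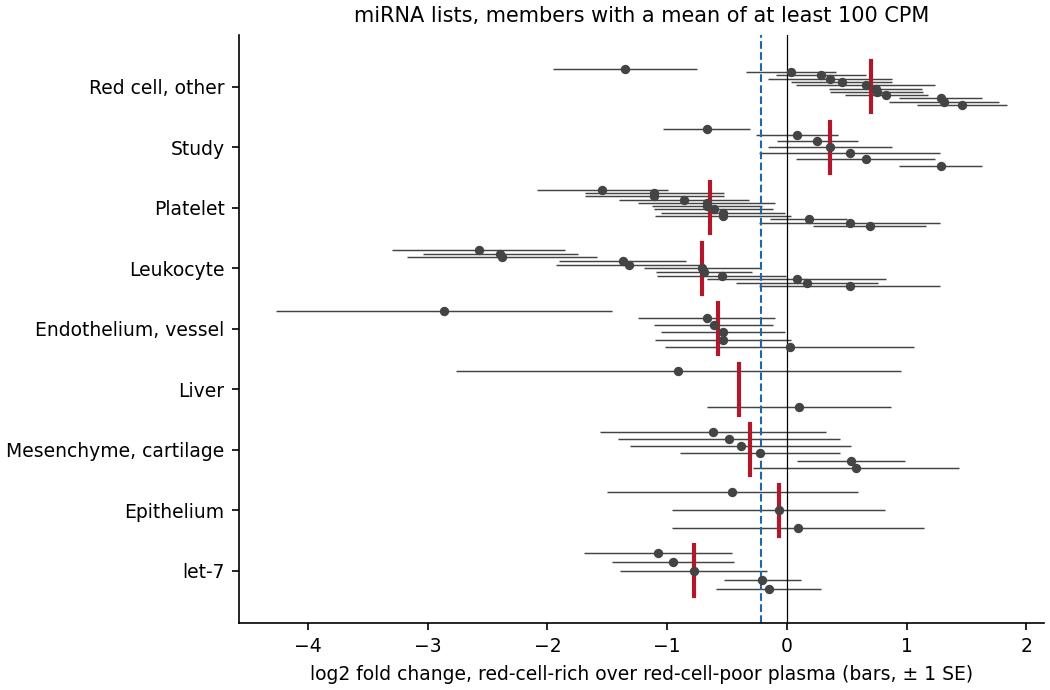
Log2 fold change of red-cell-rich over red-cell-poor plasma (x axis, ± 1 SE) for members of 9 lists that averaged at least 100 CPM (y axis), with red lines for the median of each list and a blue dashed line for the median of all 124 such miRNAs (-0.22). The red-cell list has a median of 0.70 and 11 of 12 members above 0, and the leukocyte list a median of -0.71.

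The 5 most abundant miRNAs after removal were miR-21, miR-191a, miR-25, miR-16 and miR-92a. MiR-191a, at 68338 to 178338 CPM in red-cell-rich and 84659 to 147046 CPM in red-cell-poor plasma, had a log2 fold change of 0.18 (SE 0.32), with an FDR of 0.785 in edgeR. Of the 7 miRNAs that the study of OA itself turns on, only miR-16 was called, in the class comparison and with the continuous term, beside 4.76% and 16.8% over all miRNAs tested. MiR-25 and miR-92a are described with the red-cell list, miR-223 is described among the leukocyte miRNAs, miR-23b had 0.26 (SE 0.34) and miR-23a 0.09 (SE 0.34), while miR-27b, which the study took as an endogenous control, had -0.67 (SE 0.36) with an FDR of 0.273 in edgeR. Under the mapping rule of 1 mismatch miR-23a and miR-23b, and miR-27a and miR-27b, can share reads, so their values are uncertain. This list was chosen in part on libraries of this series and is no independent evidence of direction.

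Synovial fluid of the same 11 horses gave a measure that the classes did not use. The 3 miRNAs held 74.35% of miRNA reads in the synovial fluid of M4, 36.97% in S5, 21.82% in M3 and 17.20% in S9, and between 7.38% and 33.95% in horses with red-cell-poor plasma. The ranges overlapped, and the pair of horses with the highest share in plasma had the lowest of the 4 in synovial fluid. The log2 ratio of the 3 miRNAs to all others was higher by 1.59 in horses with red-cell-rich plasma (exact permutation p = 0.109, p = 0.374 adjusted over the 13 single values tested, n = 4 and 7). Without M4 this difference was 0.80 (exact permutation p = 0.300), and at a limit of 45%, which moves M4 to the red-cell-poor class, it was 0.31 (exact permutation p = 0.727). The ratio of miR-144 alone differed by 2.19 (exact permutation p = 0.0545, adjusted p = 0.374), miR-486-5p by 1.50 (exact permutation p = 0.0788) and miR-451 by 1.70 (exact permutation p = 0.115).

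Among the other miRNAs of synovial fluid, 8 were called between horses with red-cell-rich and red-cell-poor plasma, 6 higher and 2 lower, which is 3.10% of the 258 left after filtering (edgeR, FDR under 0.05). MiR-486-3p had the largest test statistic. It was at 11815 CPM in M4, 3527 in S5, 910 in M3 and 681 in S9, against 177 to 1238 in horses with red-cell-poor plasma, so that M3 and S9 overlapped with the other class. Its log2 fold change was 3.04 (SE 0.44, exact permutation p = 0.0364, n = 4 and 7). This SE comes from the edgeR model and does not measure the spread between horses, and DESeq2 gave a larger SE of 0.70. The edgeR SEs and FDRs of the other synovial fluid calls rest on the same model. MiR-486-3p was the only miRNA called by DESeq2, and without M4 it stayed called at 1.74 (SE 0.49, FDR 0.0481 in edgeR). Without M4 none of the other 7 was called.

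MiR-25 was at 193188 CPM in M4, 71349 in S5, 40606 in M3 and 35386 in S9 of synovial fluid, with a log2 fold change of 1.44 (SE 0.41). MiR-33b (2.20, SE 0.69), which also rose with the ratio in plasma, was at 635 CPM in M4, 216 in S5, 74.6 in M3 and 95.0 in S9. MiR-7 and miR-2483 were highest in M4, at 774 and 580 CPM. Without M4 the log2 fold changes in edgeR were 0.71 for miR-25, 1.26 for miR-33b, 1.25 for miR-2483 and -0.56 for miR-7. MiR-873 was at 0 in 9 of the 11 libraries, and miR-1291a and miR-8986b, the lower ones, were highest in the horse S1 at 658 and 337 CPM. MiR-15a (1.14, SE 0.41) and miR-16 (1.03, SE 0.41) were positive in synovial fluid as in plasma but were not called (FDR 0.134 and 0.230 in edgeR).

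The effect on miR-150 differed between the fluids. In synovial fluid it was at 4920 CPM in M4, 2948 in S5, 2710 in M3 and 16640 in S9, with a log2 fold change of 0.84 (SE 0.42, FDR 0.375 in edgeR), where plasma had -2.39. In a fit of the 22 libraries with the horse as a block, the interaction of class with fluid was -3.37 (SE 0.83) on the log2 scale, with an FDR of 0.0375 in edgeR. It was the only one of 411 miRNAs called, which is 0.243%, and 12 had an unadjusted p under 0.05. Without the horse M4 the interaction was -2.77 (SE 0.93) and no longer called (FDR 0.618), and without any other single horse it stayed called.

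**Figure D5:**
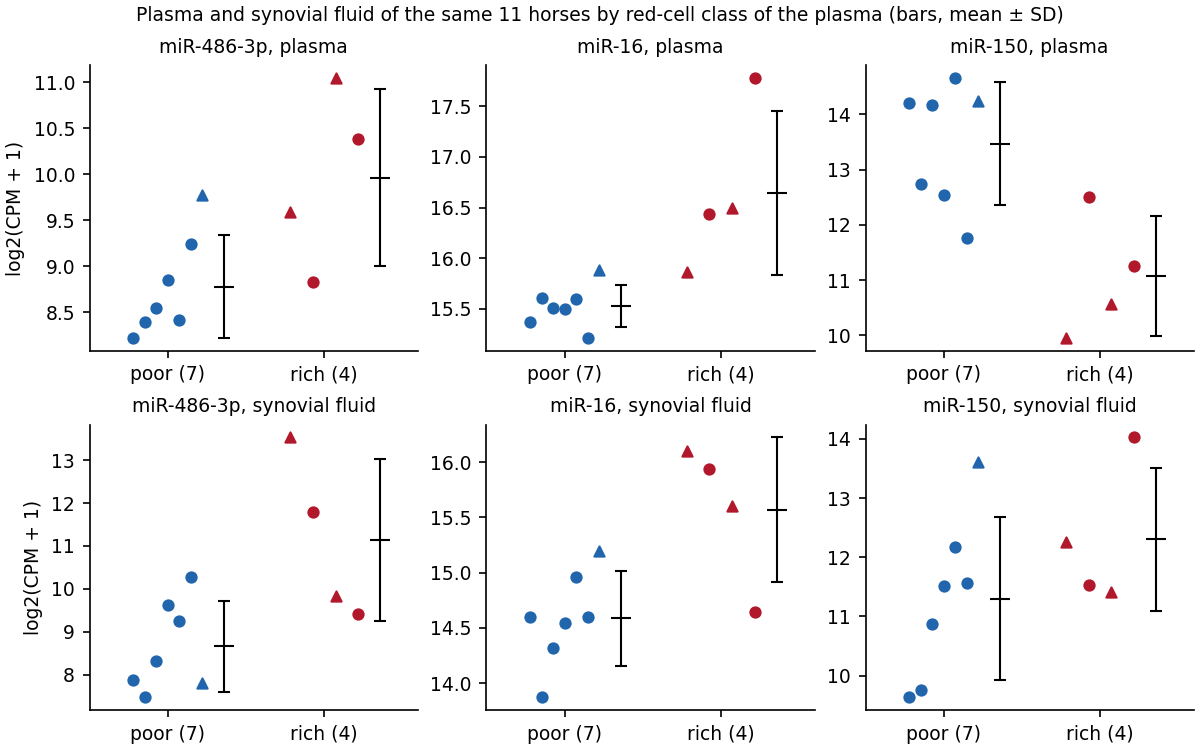
Level of miR-486-3p, miR-16 and miR-150 as log2(CPM + 1) (y axis) in plasma (top) and synovial fluid (bottom) of the same 11 horses, by the class of the horse's plasma (blue, red-cell-poor; red, red-cell-rich; triangles, mild OA), with bars for the mean ± SD. MiR-150 is lower in red-cell-rich plasma (log2 fold change -2.39) and has a log2 fold change of 0.84 in synovial fluid.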

How the data were processed

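Small RNA from plasma (11 horses) and synovial fluid (17 horses) was read as 1 library per horse and fluid. The plasma libraries are not described in the study's methods, which were written for synovial fluid. Per those methods and the submitters' processing notes, the authors trimmed adapters (cutadapt) and mapped reads with Bowtie to the horse genome and to the horse miRNAs of miRBase, and deposited raw read counts for each of 690 miRNAs and 3 spike-ins. The deposited RPM by library were used only to recover library totals, since the count divided by the RPM gives the total. The RPM by miRNA reads, which the authors deposited in another column of values, were not used.

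Fluids of a horse were matched by breed, age and sex in the labels. The 3 miRNAs were removed before library sizes and TMM factors were computed. Counts were fitted with edgeR 4.0.16 in R 4.3.3 (quasi-likelihood test in its older form), with independent filtering over 50 cutoffs on mean CPM up to the 0.95 quantile, and called at an FDR under 0.05. The cutoff with the most calls was kept in each fit. DESeq2 1.42.0 was an alternative. SEs were taken from the fold change and the F statistic. Exact tests used scipy 1.17.1, with Python 3.11.15, pandas 2.3.3, numpy 2.4.6, and figures matplotlib 3.10.9. Neighbouring genes were miRNA genes of RefSeq (assembly TB-T2T) starting within 2000 bases.

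The test was tested on simulated counts with a log2 fold change of 2. For the plasma classes, 8 of 39 changed miRNAs among 370 were recovered, 8 of the 12 abundant ones, with 1 false call. For synovial fluid by plasma class, 11 of 40 among 335 were recovered with 1 false call. A count of 3 reads, taken as the floor, was worth 1.54 (S12) to 4.75 (S8) per 1e+06 other miRNA reads in plasma.

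The classes and all lists were chosen with earlier results of these data known. The miRNAs named were the 3 removed ones, members of the red-cell list and the study's list, called miRNAs, the 5 most abundant, and members of the leukocyte, platelet, vessel and let-7 lists that averaged 100 CPM or more. The other lists are described by ranges. MiR-10a and miR-31 were chosen after their values were seen. Alternatives covered scaling, filter, test, covariates, the limit of the classes and libraries left out. The continuous term was listed as an alternative to the classes at the outset, and its own alternatives and the interaction were added after seeing the data.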

Additional observations from a re-analysis of the deposited data

Results flagged for a closer look

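The effect of the class on miR-150 differed between plasma and synovial fluid, with an interaction of -3.37 on the log2 scale (FDR 0.0375 in edgeR). Without the horse M4 the interaction was not called (FDR 0.618 in edgeR), and it was added after seeing the data.

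A library was noted when its gap to the nearest other library of its class, divided by the range of the class on the log2(CPM + 1) scale, passed Dixon's 95% limit, which chance passes in about 1 of 20 groups, and 144 groups were checked. In red-cell-poor plasma M1 stood apart above the rest for miR-103 (0.602), miR-107a (0.601), miR-10a (0.664) and miR-181a (0.635). MiR-103 and miR-107a share reads and count as 1. The TMM factors raised every level in M1 and S9, so gaps in their levels depend on this scaling. In red-cell-rich plasma S9 stood apart above the rest for miR-15b (0.841) and miR-93 (0.853), and M4 for miR-342-3p (0.843), where M4 was at 9274 CPM and the other 3 libraries at 2683 to 3261. Among the horses with red-cell-rich plasma S9 also stood apart by its age (0.876), at 26.2 years against 10 to 12 years.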

How the results depend on the processing

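Of 1890 values of the 61 named miRNAs under alternatives, 1661 kept their direction and their side of the threshold, 37 lost and 76 gained a call, and 116 in 26 miRNAs turned sign. MiR-15a, miR-16 and miR-150 kept their sign in every alternative tried. Of 31 alternatives, miR-15a lost its call in 12, miR-16 in 12 and miR-150 in 13. The causes were not tested. The count of 3 calls in plasma became 1 with spike-in reads as the scaling, 16 in DESeq2, 6 with the newer quasi-likelihood form, 0 with no filter, 0 at a mean of at least 10 CPM, 7 at an FDR under 0.1, 5 with OA group as a covariate, 11 at a share of at least 45%, 23 with the continuous term, 6 in one fit of all 28 libraries, 0 without M3 and S9, 23 without M4 and S5 and 7 in severe OA libraries only. The call with spike-in reads was miR-143 (-5.40, FDR 0.0490 in edgeR). MiR-15a, miR-16 and miR-150 were not called under that scaling. With 1 library left out the calls in plasma ranged from 0 to 8. The 23 calls of the continuous term became 35 with library size alone, 10 with spike-in reads and 0 without M3 and S9, and ranged from 2 to 48 with 1 library left out. The 8 calls in synovial fluid became 1 in DESeq2 and ranged from 1 (without M4) to 11. The difference in log2 spike-in reads per library read turned from 0.89 to -0.21 at a share of at least 45%, and the difference in other miRNAs at equal depth ranged from -12.3 to 0.253 with 1 library left out. With 1 library left out, the difference in synovial fluid ranged from 0.80 to 2.07 for the 3 miRNAs together, from 0.83 to 2.16 for miR-451, from 0.85 to 1.99 for miR-486-5p and from 1.29 to 2.59 for miR-144. No paired analysis was possible because the classes hold different horses, for the comparison of classes within 1 fluid, while the interaction of class with fluid was fitted within horses.

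With upper-quartile factors, the sign turned for let-7c (0.11), let-7g (0.040), miR-182 (0.27), miR-183 (0.18). With the red-cell list left out of the library size, the sign turned for let-7c (0.046), let-7g (0.017), miR-182 (0.12), miR-183 (0.066). With age as a covariate, the sign turned for let-7c (0.012), miR-145 (-0.020), miR-146b-5p (-0.21), miR-96 (-0.29). In severe OA libraries only, the sign turned for let-7g (0.10), miR-145 (-2.45), miR-23a (-0.15), miR-96 (-4.42). With spike-in reads as the scaling, the sign turned for miR-101 (-0.34), miR-103 (-0.37), miR-106b (-0.21), miR-107a (-0.36), miR-142-5p (-0.80), miR-145 (-2.75), miR-146b-5p (-0.42), miR-15b (-0.41), miR-17 (-1.04), miR-185 (-0.32), miR-191a (-0.85), miR-197 (-0.16), miR-20a (-0.76), miR-223 (-0.17), miR-23a (-0.98), miR-23b (-0.88), miR-25 (-0.015), miR-3613 (-0.084), miR-486-3p (-0.018), miR-92a (-0.28), miR-93 (-0.22), miR-96 (-2.30). Without M3 and S9, the sign turned for miR-101 (-0.34), miR-145 (-1.24), miR-25 (-0.047), miR-92a (-0.42), miR-96 (-0.30). As slopes of the continuous term, the sign turned for miR-142-5p (-0.060), miR-146b-5p (-0.53), miR-17 (-0.021), miR-182 (0.078), miR-183 (0.071), miR-223 (-0.37), miR-23a (-0.11). Without M4 and S5, the sign turned for miR-142-5p (-0.79), miR-146b-5p (-2.48), miR-17 (-0.46), miR-182 (0.27), miR-183 (0.29), miR-191a (-0.18), miR-223 (-2.24), miR-23a (-0.61), miR-23b (-0.070). With the 3 chosen miRNAs kept, the sign turned for miR-145 (-0.12). With OA group as a covariate, the sign turned for miR-145 (-1.29), miR-96 (-1.52). With sex as a covariate, the sign turned for miR-145 (-0.61), miR-146b-5p (-0.076), miR-96 (-0.12). With library size alone, the sign turned for miR-146b-5p (-0.011), miR-17 (-0.11). At a share of at least 45%, the sign turned for miR-17 (-0.10), miR-182 (0.23), miR-183 (0.024), miR-23a (-0.20), miR-96 (-0.36). With RLE size factors, the sign turned for miR-182 (0.11), miR-183 (0.047). In DESeq2, the sign turned for miR-182 (0.11), miR-183 (0.051). In one fit of all 28 libraries, the sign turned for miR-182 (0.21), miR-183 (0.12). With 1 library left out in turn, values ranged from -0.36 to 0.019 for let-7c, from -0.060 to 0.74 for miR-101, from -0.97 to 0.46 for miR-142-5p, from -1.34 to 1.11 for miR-145, from -2.03 to 0.43 for miR-146b-5p, from -0.17 to 0.23 for miR-17, from -0.85 to 0.35 for miR-182, from -0.92 to 0.25 for miR-183, from -0.041 to 0.38 for miR-191a, from -1.59 to 0.89 for miR-223, from -0.12 to 0.34 for miR-23a, from -0.12 to 0.58 for miR-92a, from -0.69 to 0.51 for miR-96.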
